A study of Castanea mollissima with 7 samples.

Results

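Embryos of the Chinese chestnut, Castanea mollissima, were sequenced as RNA in 7 samples, and 4 distinct libraries of the embryos with the title code ys are compared here. These are ys 1 and ys 2 (embryo 1 and embryo 2) on one side and ys 5 and ys 6 (embryo 5 and embryo 6) on the other. Embryo 3 and embryo 4 also carry the code ys but were left out, because their columns held the same value as those of embryo 1 and embryo 2, respectively, for all 33991 genes. Embryo 7, the single library with the code yh, did not enter the choice of the pairs and serves as an outside point. By the run numbers in the titles, yh falls between ys 5 and ys 6, while ys 1 and ys 2 carry numbers of another series. Their identical copies, embryo 3 and embryo 4, carry numbers close to those of ys 5, ys 6 and yh. Whether run numbers and expression are linked was not tested. Total RNA was taken with an extraction kit for plants and turned into libraries with a directional kit, and the labels give no treatment, cultivar, age or stage for any of them. The labels do not say what ys and yh stand for, nor whether different libraries stand for different trees, nuts or cultures.

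The pairs were recognised from the expression values themselves: FPKM values in ys 1 lay close to those in ys 2, and values in ys 5 close to those in ys 6. The labels name no condition for this split, so origin, stage and preparation of the embryos cannot be told apart, and none was tested. For the same reason the difference between the pairs is described without a test, by the values of each library. A permutation test of 2 libraries against 2 could not have given a two-sided p below 0.333. The tissue could not be checked against embryo markers, since the deposited table lists genes by ID without names or products.

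As background, the edible part of a chestnut is the embryo, whose cotyledons take over the space of the endosperm and fill with starch. Plant embryos first lay down their body plan and then enter a filling and maturation phase, in which genes for reserves and for tolerance of drying are switched on in turn. The transcriptome of a seed embryo therefore depends on its stage, and also on the genotype of both parents, because the embryo is a product of fertilisation.

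The libraries were alike in breadth. Values above 0 were listed for 24951 genes (ys 1), 25201 (ys 2), 24709 (ys 5) and 24906 (ys 6), and 23057 genes were above 0 in all 4. Relative depth was read from the steps in which low FPKM values move, and as a multiple of ys 1 it was 1.20 for ys 2, 1.12 for ys 5 and 1.16 for ys 6, so the pairs overlapped in depth. At least 100 FPKM was reached by 1905 and 1888 genes in the first pair and by 1867 and 1858 in the second. At least 10 FPKM was reached by 12126 and 12145 genes in the first pair and by 11805 and 11864 in the second. For at least 1 FPKM the counts were 19008 and 18933 against 18614 and 18785. The pairs did not overlap in any of these counts, nor in that of genes above 0. The counts at 1, 10 and 100 FPKM rest on the scaling as deposited.

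The comparison used 18923 genes, those whose FPKM averaged 1 or more over the 4 libraries, on the scale log2(FPKM + 1). FPKM is the number of fragments per kilobase of gene, scaled to the depth of the library. The 1 added before the logarithm shrinks differences of low genes. The 20 genes just inside the limit had means of 1 to 1.01 FPKM and single values from 0.27 to 1.61 FPKM. The 20 just outside had means of 0.988 to 0.998 FPKM and single values from 0.16 to 2.06 FPKM.

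Within a pair, most genes differed little. The median absolute difference of log2(FPKM + 1) over genes was 0.079 between ys 1 and ys 2 and 0.080 between ys 5 and ys 6. Across the pairs, the 4 comparisons gave medians from 0.176 to 0.178. In 95% of genes the absolute difference was at most 0.39 within ys 1 and ys 2 and at most 0.40 within ys 5 and ys 6, against limits of 0.82 to 0.84 across. That values within lie under those across follows from the choice of the pairs, which was made on these same values, and is no finding. The 4 comparisons across were nearly equal in size. Genes are not independent replicates, and these medians describe the libraries only.

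The same values are given by level of expression to describe where the distance lies; the choice of the pairs fixes their direction. For genes with a mean of 1 to 2 FPKM, the median absolute difference of log2(FPKM + 1) was 0.18 in both comparisons within a pair and 0.29 to 0.30 across. For genes averaging 100 FPKM or more it was 0.045 to 0.052 within and 0.14 to 0.15 across. The smallest value across was 1.62 times the largest within for the lowest genes and 2.72 times for the highest genes. These ratios also rest on the values used to choose the pairs, and no cause is read from them.

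**Figure D1:**
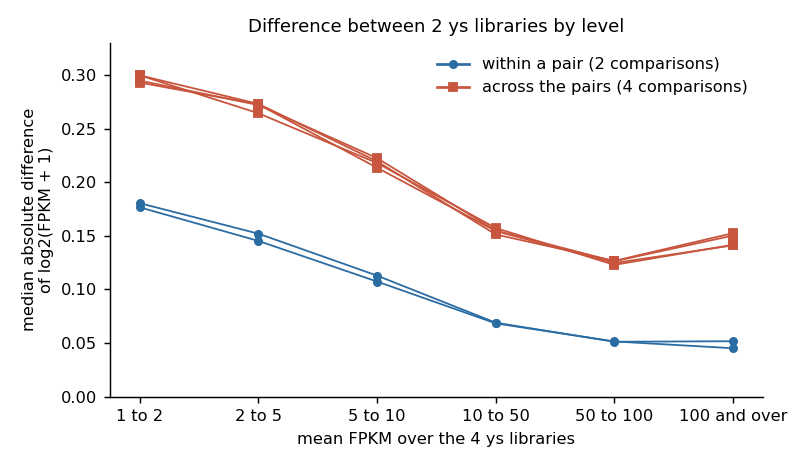
Median absolute difference of log2(FPKM + 1) between 2 ys libraries (vertical axis) for genes grouped by mean FPKM over the 4 libraries (horizontal axis); each line is 1 comparison of 2 libraries, blue within a pair and red across the pairs. The red lines lie above the blue ones at each of the levels, from 0.29 to 0.30 against 0.18 among the lowest genes to 0.14 to 0.15 against 0.045 to 0.052 among the highest.

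Next, genes were counted in which the pairs did not overlap, that is, in which both libraries of a pair lay above both of the other. This was so in 13147 of 18923 genes (69.5%). In 8099 of them (42.8% of the genes compared) ys 1 and ys 2 were above, and in 5048 (26.7%) ys 5 and ys 6 were above. The choice of the pairs fixes such a count in part, so nothing is read from its size. The excess of genes above in ys 1 and ys 2 depends on the scaling, since they made up 61.6% of the genes without overlap in the values as deposited, 48.7% after median-of-ratios scaling and 49.0% after quantile normalisation. The median gene was higher by 0.051 to 0.052 on the log2(FPKM + 1) scale in ys 1 and ys 2 as deposited, and both scalings brought this median to between -0.011 and 0.0045.

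A gap of at least 2-fold on the FPKM + 1 scale between the nearest libraries of the pairs was found in 289 genes (1.53% of those compared). Of these, 178 genes (0.941%) were higher in ys 1 and ys 2, and 111 genes (0.587%) were higher in ys 5 and ys 6. This rule asks for the limit in all 4 comparisons across the pairs. Taken singly, 2 libraries from different pairs were 2-fold apart in 582 to 634 genes, ys 1 and ys 2 in 22 genes (0.116%) and ys 5 and ys 6 in 31 genes (0.164%). A gap of at least 4-fold remained in 10 genes (0.0528%) and 5 genes (0.0264%), respectively. The limit cuts through a continuous range: gaps of 0.9 to 1 on the log2 scale, just short of it, were found in 52 and 31 genes, and gaps of 1 to 1.1 in 35 and 29 genes. The median gap was 1.27 on the log2 scale for the 178 genes and 1.20 for the 111. With 0.1 in place of 1 added to FPKM the counts were 324 and 173, and with 5 added they were 49 and 39. Leaving out a library loosens the rule: the first count rose to 318 without ys 6, and the second to 181 without ys 1 and 176 without ys 5.

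The direction of the large gaps differed with the level of the gene. Among 1875 genes averaging 100 FPKM or more, 14 were at least 2-fold higher in ys 5 and ys 6 and 3 in ys 1 and ys 2. Among 2636 genes with a mean of 2 to 5 FPKM, the order was the other way round, with 20 and 49 genes. The counts of genes without overlap followed the same order. Of the genes at 100 FPKM and over, 45.7% lay above in ys 5 and ys 6 and 31.9% in ys 1 and ys 2. This excess of ys 5 and ys 6 among the highest genes kept its direction under median-of-ratios scaling (57.5% against 22.4%) and quantile normalisation (40.7% against 35.9%). Among the genes below 100 FPKM, ys 1 and ys 2 were above in 44.0% and ys 5 and ys 6 in 24.6%. Median-of-ratios scaling kept this order with a smaller excess (34.8% against 32.9%), and quantile normalisation turned it round (32.9% against 33.9%). Gaps of at least 2-fold below 100 FPKM kept their direction, with 175 against 97 of 17048 genes as deposited. They numbered 162 against 105 of 17041 after median-of-ratios scaling and 146 against 120 of 17050 after quantile normalisation.

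**Figure D2:**
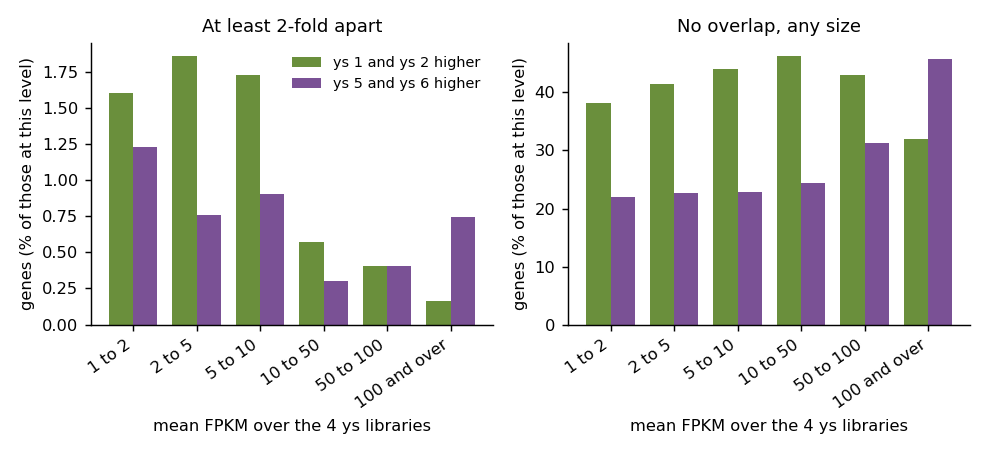
Share of genes at each level (vertical axes, percent; the scales differ) that were higher in ys 1 and ys 2 (green) or in ys 5 and ys 6 (purple), by mean FPKM over the 4 libraries (horizontal axes); left, gaps of at least 2-fold; right, pairs without overlap at any size. Green bars are the taller ones at low levels and purple bars at 100 FPKM and over. At that highest level 0.747% against 0.16% of genes passed the 2-fold limit. Below 100 FPKM the excess on the right turns round after quantile normalisation, and that on the left keeps its direction.

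The genes with large gaps made up a small part of the summed FPKM. They were also few: the 178 and 111 genes are 0.941% and 0.587% of those compared. The 178 genes higher in ys 1 and ys 2 summed to 4144 FPKM in ys 1 and 4104 FPKM in ys 2, but to 1174 FPKM in ys 5 and 1289 FPKM in ys 6. This was 0.437% and 0.431% of all FPKM in the first pair and 0.122% and 0.134% in the second. The 111 genes higher in ys 5 and ys 6 summed to 7991 and 8417 FPKM in ys 5 and ys 6, or 0.831% and 0.877% of all FPKM, and to 3251 and 2908 FPKM in ys 1 and ys 2. A single gene gave 2859 and 2847 FPKM of this sum in ys 5 and ys 6, and had 1376 and 1151 FPKM in ys 1 and ys 2. Without it, the remaining 110 genes summed to 5132 and 5570 FPKM in ys 5 and ys 6 and to 1875 and 1757 FPKM in ys 1 and ys 2. These sums only describe genes that were picked for their difference.

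Since the table pairs no ID with a name, only the 2 genes per direction with the largest gaps among those averaging 10 FPKM or more are given by ID, together with a run of neighbours described further on. The level of Cm11G01944 was 125 FPKM in ys 1 and 163 FPKM in ys 2, but 9.93 FPKM in ys 5 and 12.2 FPKM in ys 6. Both values of the first pair were thus far above both of the second, by ratios of 10.3 to 16.4 in FPKM over the 4 comparisons. That of Cm09G00433 was 127 FPKM in ys 1 and 121 FPKM in ys 2, but 11.5 FPKM in ys 5 and 22.2 FPKM in ys 6. Its ratios ran from 5.44 to 11.1, a wide range that came from ys 5 and ys 6, which differed by 0.89 on the log2(FPKM + 1) scale.

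In the other direction, Cm08G01894 was listed at 0 in ys 1 and in ys 2, at 233 FPKM in ys 5 and at 256 FPKM in ys 6. No fold is given for this gene, because the table gives no counts behind a value of 0. Cm01G02680 stood at 5.66 FPKM in ys 1 and 3.18 FPKM in ys 2, but at 40.8 FPKM in ys 5 and 48.7 FPKM in ys 6. Its FPKM was 7.20 to 15.3 times as high in ys 5 and ys 6. All 4 genes had groups that did not overlap, which is how they were chosen, and what any of them encodes is not known from the table.

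**Figure D3:**
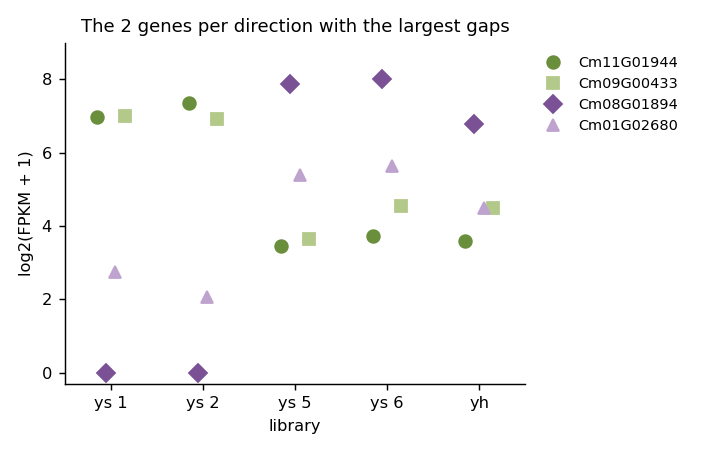
Level of the 2 genes per direction with the largest gaps (vertical axis, log2(FPKM + 1)) in each ys library and in yh (horizontal axis); each marker is 1 gene in 1 library. The 2 green genes fall from 121 to 163 FPKM in ys 1 and ys 2 to 9.93 to 22.2 in ys 5 and ys 6, and Cm08G01894 is listed at 0 in ys 1 and ys 2.

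Presence against absence was rare. Of all 33991 genes, 2 were listed at 0 in both ys 1 and ys 2 while reaching at least 1 FPKM in both ys 5 and ys 6, and 1 gene showed the opposite. Cm08G01894 is among the former, and the single gene of the latter kind reached only 1.26 and 2.35 FPKM. With a library left out, the first count was up to 4 (without ys 5), and the second was 3 if ys 1 was dropped, 4 if ys 2 was, 5 if ys 5 was and 10 if ys 6 was. With no lower limit, 303 genes were above 0 in both ys 1 and ys 2 and at 0 in both ys 5 and ys 6, with a median level of 0.095 FPKM in the pair that had them. A further 206 genes showed the reverse, with a median of 0.08 FPKM. At such levels a few reads decide whether a gene is listed at 0, and absence of the transcripts cannot be shown at this depth.

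Differences within a pair lay mostly in low genes. Those 2-fold apart between ys 1 and ys 2 had a median of 2.13 FPKM, and 1 of the 22 averaged 10 FPKM or more. Those between ys 5 and ys 6 had a median of 3.04 FPKM, and 3 of the 31 averaged 10 FPKM or more. The lists shared 0 genes, 0% of either, while 0 of the 22 and 5 of the 31 were also 2-fold apart between the pairs. Of the 289 genes 2-fold apart between the pairs, 104 averaged 10 FPKM or more, beside 12006 of all 18923 genes compared. Low genes were thus more common among the 289 as well than among all genes compared.

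The yh library was then placed among the pairs for the genes 2-fold apart between them. In 169 of the 178 genes higher in ys 1 and ys 2 (94.9%), the ys library nearest to yh on the log2(FPKM + 1) scale was ys 5 or ys 6. The same held in 97 of the 111 genes higher in ys 5 and ys 6 (87.4%), and over all 18923 genes in 68.0%. In the 12858 genes whose pairs did not overlap but were under 2-fold apart it was 73.7%. With 1 yh library, no error can be given for these shares. Without ys 6 the share of 94.9% became 82.7%, and without ys 5 that of 87.4% became 73.9%. Over all genes compared, yh was at least 2-fold from ys 5 in 130 (0.687%) and from ys 6 in 125 (0.661%). From ys 1 it was so in 594 (3.14%) and from ys 2 in 619 (3.27%). Beside these, ys 5 and ys 6 were 2-fold apart from each other in 31 genes (0.164%).

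The place of yh was not the same in both sets. In the 178 genes higher in ys 1 and ys 2, yh lay between the pairs in 81, within the range of ys 5 and ys 6 in 46 and below both of them in 51. It lay within or above the range of ys 1 and ys 2 in 0 of these genes. On a scale from 0 at the midpoint of ys 1 and ys 2 to 1 at that of ys 5 and ys 6, its median place was 0.962. In the 111 genes higher in ys 5 and ys 6, yh lay between the pairs in 75, within the range of ys 5 and ys 6 in 19, above both of them in 16 and within the range of ys 1 and ys 2 in 1, with a median place of 0.808. The difference between the sets was not tested. Of the genes named above, Cm08G01894 had 110 FPKM in yh and Cm01G02680 had 21.4 FPKM, both between the pairs, while Cm11G01944 with 10.98 FPKM and Cm09G00433 with 21.6 FPKM lay within the range of ys 5 and ys 6.

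**Figure D4:**
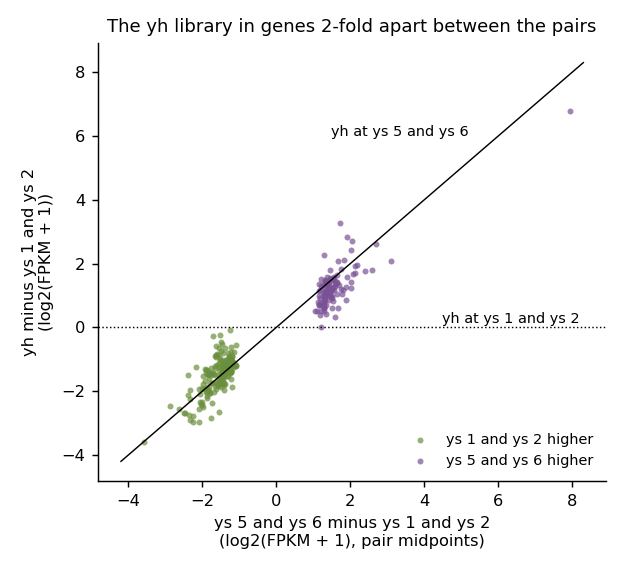
Difference of yh from the midpoint of ys 1 and ys 2 (vertical axis) against the difference of the midpoint of ys 5 and ys 6 from it (horizontal axis), both on the log2(FPKM + 1) scale, for the 289 genes 2-fold apart between the pairs; each point is 1 gene. Points on the solid line have yh at the level of ys 5 and ys 6, points on the dotted line at that of ys 1 and ys 2; most lie near the solid line, the purple genes more often below it, with 75 of 111 between the pairs.

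The 289 genes were spread over all 13 ID prefixes of the table. By prefix, between 0.852% (Cm11) and 2.29% (Cm06) of the genes compared were 2-fold apart in either direction. The prefix Cm07 had 15 genes higher in ys 1 and ys 2 (1.14% of its genes compared) and 1 higher in ys 5 and ys 6 (0.0759%). Cm08 had 12 (0.732%) and 17 (1.04%), and Cm04 had 12 (0.816%) and 16 (1.09%). Over all prefixes the shares were 0.941% and 0.587%. Of the 16 in Cm04, 8 form the single run of consecutive IDs described below. These counts are small and were not tested.

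Neighbouring IDs were examined next. Among the genes higher in ys 5 and ys 6, the neighbours of most did not pass the limit. For 66 of the 111, the gene with the next ID number had also passed the filter, and in 11 of the 66 (16.7%) that neighbour was itself at least 2-fold higher in ys 5 and ys 6, a state found in 0.587% of all genes compared. For the genes higher in ys 1 and ys 2 it was 4 of 102 (3.92%), beside 0.941% of all. Much of the first share came from a single run, without which 4 of 58 neighbours (6.90%) remained. The run holds low genes, and with 5 added to FPKM the first share was 1 of 22 (4.55%). The second share was 6.72% to 7.48% with any 1 of the 4 libraries left out. At a fold limit of 1.5 the order of these raw shares turned round. They were 10.1% for the genes higher in ys 5 and ys 6 and 11.7% for those higher in ys 1 and ys 2. Of all 18923 genes compared, 366 and 641, respectively, then passed the limit, so these shares have unlike base rates. Neighbours can be copies of a gene that share reads, so their values are not independent of one another.

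That run, singled out after its values were seen, holds 8 consecutive IDs from Cm04G02243 to Cm04G02250, each of them at least 2-fold higher in ys 5 and ys 6. Their FPKM ranged from 0.26 to 3.21 in ys 1 and from 0.22 to 2.92 in ys 2, against 2.21 to 9.62 in ys 5 and 3.15 to 12.1 in ys 6. Summed over the 8 genes, the levels were 8.89 and 10.1 FPKM in ys 1 and ys 2, 41.3 and 53.9 FPKM in ys 5 and ys 6, and 28.6 FPKM in yh. In yh all 8 genes lay above both ys 1 and ys 2, and 7 of them lay below both ys 5 and ys 6. The gaps ran from 1.07 to 1.60 on the log2(FPKM + 1) scale. The gene just before the run, Cm04G02242, had 13.5 and 12.2 FPKM in ys 1 and ys 2 and 14.4 and 13.0 in ys 5 and ys 6, and the gene just after, Cm04G02251, had 2.34 and 3.24 against 2.54 and 2.45. Neither of these passed the limit. A little further out the flanks differed: Cm04G02252 had the opposite order, with 5.01 and 5.46 FPKM against 1.64 and 2.92, while Cm04G02237, before the run, was itself at least 2-fold higher in ys 5 and ys 6, with 13.9 and 9.46 FPKM against 36.5 and 34.4. How many reads the 8 genes share was not tested, as their sequences were not used here, and they are counted as uncertain for that reason.

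**Figure D5:**
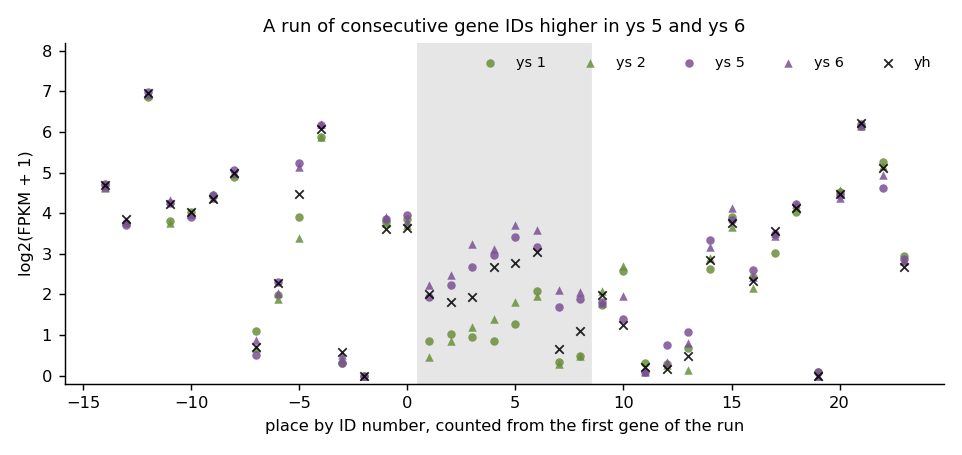
Level of neighbouring genes (vertical axis, log2(FPKM + 1)) by place in the order of ID numbers, counted from the first gene of the run (horizontal axis), in ys 1 and ys 2 (green), ys 5 and ys 6 (purple) and yh (crosses); the grey band marks the run. Inside the band the 8 genes separate the pairs, with sums of 8.89 and 10.1 FPKM against 41.3 and 53.9, and the first gene on either side does not pass the 2-fold limit, whereas 1 gene farther to the left does.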

How the data were processed

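RNA was sequenced from 7 embryo samples. The authors used FastQC 0.11.9 for read quality, Trimmomatic for trimming and STAR 2.7.10b for alignment, per the submitters' processing notes, and deposited FPKM values rounded to 2 decimals. No source used here gives the genome build, annotation or FPKM program. Run numbers in the titles tied columns to samples, and 206 columns that match no sample of the series were not used.

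From these values, genes averaging 1 FPKM or more over ys 1, ys 2, ys 5 and ys 6 were compared on log2(FPKM + 1). A gap is the smallest of the 4 differences across the pairs, in Python 3.11.15 with numpy 2.4.6, pandas 2.3.3 and scipy 1.17.1. On simulated data with 33991 genes, 100 of 100 genes planted 4-fold higher in either pair were recovered, with 0 false calls. Planted genes averaged 10 FPKM or more. The noise was equal at all levels, held no read counting and was smaller than the real spread within pairs. The SD of that real log2 difference was 0.182 for ys 1 and ys 2 and 0.186 for ys 5 and ys 6. The simulation therefore checks the code only and gives no rate of false calls for the real libraries. Relative depth is the ratio at which most low values (0.15 to 0.8 FPKM in both libraries) coincide within rounding: 125 to 194 of 1877 to 2246 genes, against a median of 30 to 46 over all ratios scanned. In simulations of whole reads over 33991 genes, ratios of 0.8 to 1.1 were recovered within 0.005 in 10 of 10 draws each, the 2 ratios tried between 1.1 and 1.3 in 10 and 9 of 10, and a ratio of 1.3 in 4 of 10. Steps of 1 read are taken for granted. Read counts are unknown, so no counting interval is given.

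The pairs, the rule for named genes and the 17 gene lists drawn up were chosen with earlier results of these data known. The lists matched 0 IDs, since the table has no names. Alternatives were other pseudocounts, filters, scalings and fold limits, and leaving out each library. No count test was run.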

Additional observations from a re-analysis of the deposited data

How the results depend on the processing

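No paired analysis was possible because nothing in the labels ties a library of ys 1 and ys 2 to one of ys 5 and ys 6. Of 127 values under other settings, 77 were classed as unchanged and 50 as moved. The first class is loose: it includes the 262 genes higher in ys 1 and ys 2 when ys 2 was left out, against 178 reported. The differences of the 4 genes named for their gaps, 2 per direction, kept their direction under both pseudocounts and both scalings. Of the genes 2-fold apart, 165 of 178 and 111 of 111 remained under median-of-ratios scaling (165 and 121 genes in all), and 149 and 110 under quantile normalisation (150 and 134 in all). The median absolute difference across the pairs was then at least 0.173 and 0.169.

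With a pseudocount of 0.1 there were 324 genes higher in ys 1 and ys 2 and 173 higher in ys 5 and ys 6, with 120 and 189 genes 2-fold apart within the pairs, and the median absolute difference was at most 0.087 within and at least 0.192 across. With a pseudocount of 5, which shrinks differences of low genes, these values were 49, 39, 3, 1, 0.061 and 0.130. The nearest library to yh was then ys 5 or ys 6 in 100% and 94.9% of genes, and 0% and 4.55% of next IDs moved likewise. With a mean of at least 5 FPKM, which leaves fewer genes, there were 103 and 71 genes, 4 and 5 within the pairs, medians of 0.068 and 0.157, and 93.0% of genes higher in ys 5 and ys 6 with yh nearest to them. With no filter the median across was at least 0.152.

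A fold limit of 1.5 gave 641 and 366 genes, with 11.7% and 10.1% of next IDs. The order of these raw shares turned round, but their base rates, set by the 641 and 366 genes, differ. A limit of 4 gave 10 and 5 genes. The ys library nearest to yh was then ys 5 or ys 6 in 100% and 100% of them, and 0% and 0% of next IDs moved likewise. Without the run of 8 IDs, which was tried after seeing the data, 6.90% of next IDs remained. Genes at 0 in 1 pair numbered 1 and 0 with at least 5 FPKM in the other, 3 at 0 in ys 5 and ys 6 with at least 0.5 FPKM, and 4 with at most 0.05 FPKM in place of 0. Leaving out each library gave 230 to 318 and 137 to 181 genes, shares for yh of 82.7% to 94.7% and 73.9% to 90.1%, 6.72% to 7.48% and 12.05% to 13.6% of next IDs, and 2 to 4 and 3 to 10 genes at 0 in a pair. Why values moved under any of these settings was not tested. Without read counts, differences of genes near 0 cannot be weighed against counting error.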
